A study of Mus musculus with 11 samples.

Results

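Zbtb46 and 9 related genes of the BTB zinc finger family were followed across 11 arrays of sorted mouse cells. The 9 were Zbtb7a, Zbtb7b, Zbtb16, Zbtb20, Zbtb32, Zbtb17, Zbtb10, Bcl6 and Patz1. They are 10 of 19933 genes with a probe set that names them alone. Each gene was read from its probe set of highest mean log2 intensity across the 11 arrays, a choice that arose for Zbtb20 alone. The mice were C57Bl/6 animals at steady state with gfp inserted into Zbtb46, and the labels call them KO (Zbtb46 gfp/gfp), Het (Zbtb46 gfp/+) and WT (Zbtb46+/+). KO and WT mice gave splenic CD4+ dendritic cells (DC), gated as CD11c+ MHCII+ CD172+ CD11b+ cells without B220 or CD8. KO, Het and WT mice each gave 3 lineage-negative CD117+ bone marrow populations that lack CD41 and the Fc gamma receptor, in order of erythroid commitment Pre MegE (CD150+, no CD105), Pre CFU-E (CD150+, low CD105) and CFU-E (CD105+, no CD150). Each genotype and population had 1 array, so that 2 DC arrays and 9 progenitor arrays were made. The labels do not say how many mice a sort pooled or whether 1 mouse served several populations. The p-values below measure the spread that the fits leave over between these arrays, since no group has a replicate. In the additive fit this spread includes any real dependence of a stage difference on genotype. For Zbtb46 among the progenitors, the SE of a stage or genotype difference was 0.23, against a median of 0.06 over all genes.

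BTB zinc finger proteins bind DNA through zinc fingers, and their BTB domain pairs the proteins and recruits corepressors such as NCoR, BCoR and histone deacetylases. Several of them set lineage choice in blood cells: Zbtb7a in erythroid cells and B cells, Zbtb7b (ThPOK) in CD4 T cells, Zbtb16 (PLZF) in natural killer T cells, and Bcl6 in germinal centres. Zbtb46 is known as a factor of classical DC and their precursors, and the mouse gene is also expressed in erythroid progenitors and endothelium.

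Promoter windows at starts listed by RefSeq are printed for the members that were higher late in the erythroid series, beside one that was lower. RefSeq (GRCm38.p6) held 13 promoter entries for 8 of the 10 members, each running from 250 bases before to 50 bases after a start. Zbtb16 and Zbtb10 are named only. Of the members higher at CFU-E than at Pre MegE, Zbtb46, Zbtb7a and the upstream start of Zbtb7b are printed, and Zbtb20 is printed as a member lower at CFU-E. Capitals mark GATAA (the core letters of a GATA factor site), CCNCNCCC (the letters of an erythroid Klf1 site) and GGAAGT (the core letters of an Ets factor site such as that of PU.1, encoded by Spi1), on either strand, with overlapping matches each counted. Zbtb46 lies on the minus strand at chr2:181424339-181424638, Zbtb7a on the plus strand at chr10:81136021-81136320, Zbtb7b on the minus strand at chr3:89393329-89393628 and Zbtb20 on the plus strand at chr16:43247034-43247333. The Zbtb46 and Zbtb20 windows lie deep inside the annotated genes (chr2:181371009-181493262 and chr16:42875689-43634392), far from their outer 5' ends. The Zbtb7a and Zbtb7b windows also lie inside theirs (chr10:81135225-81152222 and chr3:89377644-89393673), nearer to the outer 5' ends. Use of these internal starts in the sorted cells was not tested, so the windows may not be the promoters active there.
Zbtb46: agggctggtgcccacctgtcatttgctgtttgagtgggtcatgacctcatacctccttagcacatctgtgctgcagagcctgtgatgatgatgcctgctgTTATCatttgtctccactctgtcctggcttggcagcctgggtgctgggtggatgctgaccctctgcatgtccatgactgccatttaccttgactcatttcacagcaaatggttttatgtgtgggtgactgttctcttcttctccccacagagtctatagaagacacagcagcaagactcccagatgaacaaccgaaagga
Zbtb7a: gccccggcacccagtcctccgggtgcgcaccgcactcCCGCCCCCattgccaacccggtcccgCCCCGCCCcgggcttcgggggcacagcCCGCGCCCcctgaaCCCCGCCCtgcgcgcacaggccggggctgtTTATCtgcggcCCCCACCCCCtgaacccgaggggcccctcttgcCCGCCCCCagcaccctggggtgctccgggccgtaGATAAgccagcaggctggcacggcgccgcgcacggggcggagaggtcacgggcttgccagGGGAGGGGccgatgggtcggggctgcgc
Zbtb7b: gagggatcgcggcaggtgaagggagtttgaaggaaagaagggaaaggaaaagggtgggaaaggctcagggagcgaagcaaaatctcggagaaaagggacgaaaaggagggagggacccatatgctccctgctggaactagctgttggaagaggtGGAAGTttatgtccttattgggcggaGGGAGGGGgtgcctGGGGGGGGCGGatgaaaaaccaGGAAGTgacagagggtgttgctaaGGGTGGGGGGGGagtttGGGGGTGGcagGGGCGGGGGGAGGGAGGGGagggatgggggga
Zbtb20: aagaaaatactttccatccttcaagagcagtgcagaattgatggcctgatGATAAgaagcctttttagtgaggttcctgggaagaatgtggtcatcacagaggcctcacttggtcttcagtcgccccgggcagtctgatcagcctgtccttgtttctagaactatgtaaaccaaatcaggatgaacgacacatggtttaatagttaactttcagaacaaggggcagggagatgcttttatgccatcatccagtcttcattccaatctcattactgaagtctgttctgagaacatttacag
The Zbtb46 window held 1 GATAA match and 0 of the other 2 motifs. The Zbtb7a window held 2 GATAA and 8 CCNCNCCC matches, and the printed Zbtb7b window held 9 CCNCNCCC and 2 GGAAGT matches. A further Zbtb7b window, at chr3:89387622-89387921 and not printed, held 1 CCNCNCCC match, 0 GATAA and 0 GGAAGT matches. The Zbtb20 window held 1 GATAA match and 0 of the other 2. Among all 32851 promoter windows of the same length, 25.4% held GATAA, 49.5% held CCNCNCCC and 23.8% held GGAAGT. The windows also differed in composition, with 77.7% G and C in Zbtb7a, 59.7% in Zbtb7b, 50.7% in Zbtb46 and 43.3% in Zbtb20, against a median of 52.7% over all windows. A match is a run of letters and does not show that a factor binds there.

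Markers of each labelled population were checked first. All 12 classical DC markers were at or above the array median in both DC arrays, with a summed intensity of 74526 to 75575, against 2017 to 3336 in the progenitors. The 9 erythroid markers on the array were all above the median in the 9 progenitor arrays, and summed to 18322 to 20187 in Pre MegE, 31929 to 33197 in Pre CFU-E and 41806 to 42312 in CFU-E cells. From Pre MegE to CFU-E, 8 of these 9 markers rose and Nfe2 fell (-1.26 on the log2 scale). Granulocyte markers were also above the median in every progenitor array (7 of 7). Megakaryocyte markers were above it in 4 of 4 at Pre MegE and Pre CFU-E and 3 of 4 at CFU-E. Of 5 B cell markers, 4 were above it at Pre MegE and 3 at each later stage. Median intensity was 196 to 218 on all arrays, but the upper quartile was 605 to 641 in DC and 968 to 1009 in progenitors, and the median difference of all genes between DC and progenitors was -0.59 on the log2 scale. In bulk samples such as these, fewer cells of a type and less RNA per cell cannot be told apart.

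Zbtb46, the disrupted gene (chr2:181371009-181493262), was high in WT DC and climbed along the erythroid series where an intact allele was present, but not in KO cells. In DC its log2 intensity was 8.02 in KO and 9.67 in WT. At Pre MegE it was 7.71 in KO, 7.67 in Het and 7.52 in WT, and all 3 values lay below their array medians. At Pre CFU-E it was 7.70 in KO, 8.30 in Het and 8.14 in WT. At CFU-E it was 7.50 in KO, 8.62 in Het and 8.87 in WT. Genotypes thus lay within 0.19 of each other at Pre MegE, while the KO array was the lowest at both later stages and below its array median at CFU-E. By level, WT DC stood highest, ahead of CFU-E from WT and Het mice, then Pre CFU-E from Het and WT mice, and then KO DC. With 1 array per group, no neighbours in this order could be tested against each other.

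**Figure D1:**
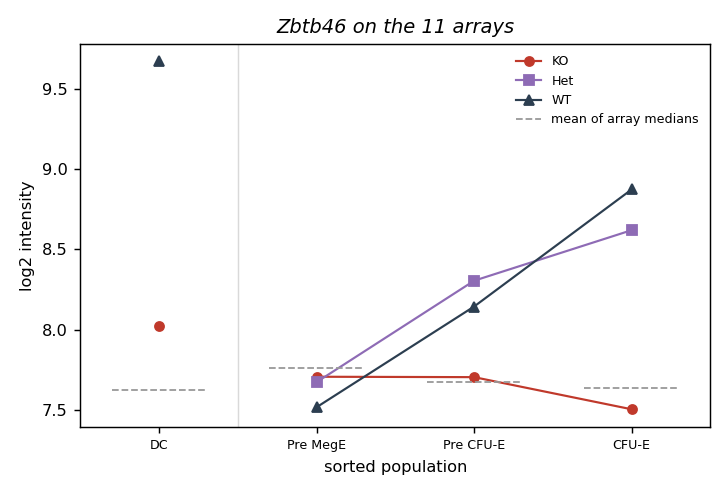
Log2 intensity of Zbtb46 (vertical axis) in DC and along the 3 erythroid stages (horizontal axis); each point is 1 array, lines join the stages of a genotype, and dashes give the mean of the array medians. The KO points of the progenitors lie between 7.50 and 7.71, while the WT points climb to 8.87 at CFU-E and DC hold 8.02 in KO and 9.67 in WT.

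From Pre MegE to CFU-E, Zbtb46 differed by -0.20 in KO, 0.95 in Het and 1.35 in WT cells, a 2.56-fold difference in WT. Averaged over the genotypes, CFU-E exceeded Pre MegE by 0.70 (SE 0.23, limma, adjusted p = 0.0183), higher in 2 of 3 genotypes. That call was lost without any 1 of 4 arrays, namely Het Pre MegE (0.58, adjusted p = 0.0861), WT Pre MegE (0.48, adjusted p = 0.0962), Het CFU-E (0.63, adjusted p = 0.0751) and WT CFU-E (0.42, adjusted p = 0.0973), limma in each case. Of all 20 alternatives, 14 kept the call, with values from 0.37 to 1.15 and adjusted p from 2.29e-05 to 0.181 (limma). With the 9 arrays weighted equally the single steps were not called, at 0.42 before Pre CFU-E (limma, adjusted p = 0.132) and 0.28 after it (limma, adjusted p = 0.348). With array weights limma called both, at 0.52 (adjusted p = 0.022) and 0.56 (adjusted p = 0.00178). The earlier step was called when only the 2 stages were compared (0.42, limma, adjusted p = 0.0176). It was also called without KO Pre MegE (0.75, limma, adjusted p = 0.00585) or KO CFU-E (0.42, limma, adjusted p = 0.0176), and the later step without KO CFU-E (0.63, limma, adjusted p = 0.00922). With all KO arrays left out, limma called both steps, with 0.63 between Pre CFU-E and Pre MegE (adjusted p = 0.00112) and 0.52 between CFU-E and Pre CFU-E (adjusted p = 0.0054). That KO values did not climb was known before KO arrays were left out. The calls made without KO arrays are therefore a description.

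Across genotypes, KO minus WT for Zbtb46 was -1.65 in DC, a 3.14-fold difference and the lowest of 10554 genes compared between these 2 arrays. Among progenitors, KO minus WT was 0.19 in Pre MegE, -0.44 in Pre CFU-E and -1.37 in CFU-E cells, the last being 2.58-fold. At CFU-E the Het array stood close to WT, with a Het minus WT difference of -0.25 (1.19-fold) and a KO minus Het difference of -1.11 (2.17-fold). The Het array was thus nearer to WT than to KO. Neither the labels nor the annotation place the probe set relative to the gfp insertion, so that signal left in KO cells cannot be assigned to an intact or a truncated transcript.

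Whether a gene's course along the stages varied with the number of gfp alleles was followed with an interaction term over the 9 progenitor arrays. The Zbtb46 pattern was known from earlier results of these arrays, and the gfp alleles disrupt this gene. Its rank is therefore a description and no independent test. For Zbtb46 the term was -0.39 log2 units per stage and gfp allele (SE 0.05), the largest in size of 10701 genes, ahead of Podxl, a sialomucin of the cell surface, at 0.35 in size. With 3 residual degrees of freedom its adjusted p was 0.167 (limma), with a range of 0.00899 to 1 over the alternative settings. It passed in 2 of 17 of them, with array weights (adjusted p = 0.00899) and without the Het Pre MegE array (limma, adjusted p = 0.0229). By limma, 0 of the 8 members tested and 0% of all genes were called, while 3 members (Zbtb46, Zbtb7b and Zbtb16) and 1029 of 10701 genes had an unadjusted p under 0.05. Zbtb7b had a coefficient of 0.11 (SE 0.03, limma, adjusted p = 0.468) and Zbtb16 one of 0.16 (SE 0.05, limma, adjusted p = 0.492).

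**Figure D2:**
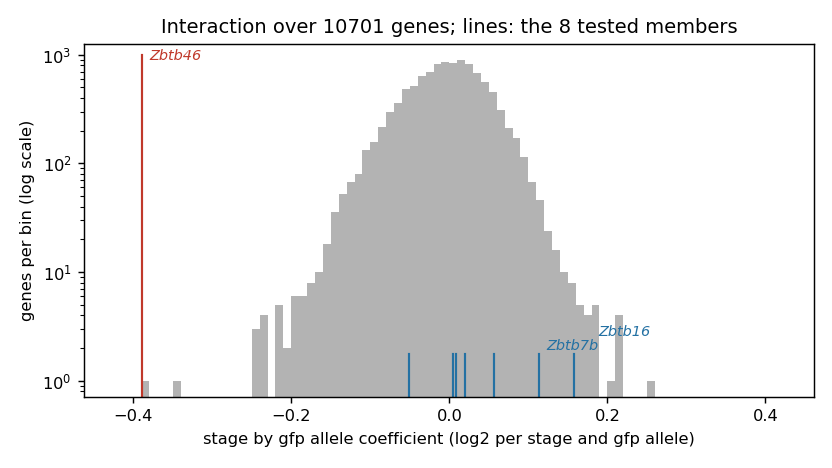
Histogram of the interaction coefficient of 10701 genes (horizontal axis, log2 units per stage and gfp allele; vertical axis, genes per bin on a log scale), with vertical lines at the 8 tested members. Zbtb46 stands at -0.39, apart from the bulk of genes, and the other 7 members lie closer to 0. Of these, Zbtb16 (0.16, rank 70 in size) and Zbtb7b (0.11, rank 371) lie in the tail.

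The same stage comparison divided the other members into a falling set and a rising set. A gene entered the tests if it reached the array median on 2 or more arrays of the fit, which 8 members met among the progenitors. Bcl6 and Zbtb32 were below the median on all 9 progenitor arrays. At CFU-E against Pre MegE, 3 members were higher and 4 lower at an adjusted p under 0.05, beside 41.5% of all genes higher and 35.1% lower. At Pre CFU-E against Pre MegE, 1 was higher and 4 were lower, beside 37.1% and 29.3%. At CFU-E against Pre CFU-E, 1 was higher and 4 were lower, beside 18.7% and 25.3%. With so many genes called, the members' counts are a description.

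Zbtb16, Zbtb20 and Zbtb10 fell steeply along the series. Zbtb16, whose product PLZF directs innate-like T cells and restrains myeloid progenitors, had log2 intensities of 10.59 in KO, 10.53 in Het and 10.83 in WT at Pre MegE. It had 9.27 in KO, 9.36 in Het and 9.52 in WT at Pre CFU-E, and 8.22 in KO, 7.83 in Het and 7.83 in WT at CFU-E. No array of one stage overlapped those of another. The difference of CFU-E from Pre MegE was -2.69 (SE 0.11, limma, adjusted p = 2.87e-08), a 6.44-fold fall that was -2.36 in KO, -2.70 in Het and -3.00 in WT.

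Zbtb20, a repressor known in liver and in plasma cells, had 9.83 in KO, 10.01 in Het and 9.74 in WT at Pre MegE. At Pre CFU-E it had 8.02 in KO, 8.39 in Het and 8.26 in WT, and at CFU-E 7.49 in KO, 7.35 in Het and 7.38 in WT. The 3 stages did not overlap, and the CFU-E values were below the array medians. The log2 difference of CFU-E from Pre MegE was -2.46 (SE 0.09, limma, adjusted p = 1.36e-08), of which -1.64 lay before Pre CFU-E and -0.82 after it. The gene's other probe set gave -2.32 in KO, -2.84 in Het and -2.70 in WT.

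Zbtb10, a zinc finger factor known in human cancer cells as a repressor of Sp factors, had 9.33 in KO, 9.52 in Het and 9.53 in WT at Pre MegE. At Pre CFU-E it had 8.10 in KO, 8.16 in Het and 8.42 in WT, and at CFU-E, below the array medians, 7.21 in KO, 7.50 in Het and 7.38 in WT. Every array of a stage lay below every array of the stage before it. The difference of CFU-E from Pre MegE was -2.10 (SE 0.07, limma, adjusted p = 6.06e-09), a 4.28-fold fall.

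Patz1 (MAZR), which represses the ThPOK gene in CD8 T cells, fell less. Its log2 intensity was 10.92 in KO, 10.82 in Het and 10.89 in WT at Pre MegE, 10.39 in KO, 10.45 in Het and 10.44 in WT at Pre CFU-E, and 10.35 in KO, 10.26 in Het and 10.24 in WT at CFU-E. CFU-E differed from Pre MegE by -0.60 (SE 0.05, limma, adjusted p = 4.09e-06). Most of this lay in the step to Pre CFU-E, at -0.45 (limma, adjusted p = 4.68e-05). The later step of -0.14 (limma, adjusted p = 0.0481) was called in 7 of 20 alternatives and lost under both other scalings, at -0.11 (adjusted p = 0.119) with arrays centred on their medians and -0.14 (adjusted p = 0.0535) with quantile normalization.

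Zbtb7a and Zbtb7b rose. Zbtb7a (LRF), which is needed in mice for erythroid maturation and represses the proapoptotic gene Bcl2l11 there, had 9.35 in KO, 9.01 in Het and 9.23 in WT at Pre MegE. At Pre CFU-E it had 9.27 in KO, 9.57 in Het and 9.48 in WT, and at CFU-E 10.01 in KO, 9.69 in Het and 9.67 in WT. The first 2 stages overlapped, whereas every CFU-E array was above all arrays of the earlier stages. CFU-E exceeded Pre MegE by 0.59 (SE 0.11, limma, adjusted p = 0.00104), in 3 of 3 genotypes. The step of 0.35 after Pre CFU-E (limma, adjusted p = 0.0334) was largest in KO, at 0.74, against 0.13 in Het and 0.19 in WT. It was no longer called without the KO CFU-E array (0.24, limma, adjusted p = 0.124), the KO Pre CFU-E array (0.18, limma, adjusted p = 0.108), the WT Pre CFU-E array (0.39, limma, adjusted p = 0.0703) or the Het CFU-E array (0.39, limma, adjusted p = 0.0716).

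Zbtb7b (ThPOK), which fixes CD4 T cell fate, had 8.22 in KO, 8.24 in Het and 8.37 in WT at Pre MegE. At Pre CFU-E it had 8.69 in KO, 8.63 in Het and 8.64 in WT, and at CFU-E 8.95 in KO, 8.82 in Het and 8.65 in WT. All later arrays exceeded all Pre MegE arrays, while the WT CFU-E array fell among the Pre CFU-E values. CFU-E exceeded Pre MegE by 0.53 (SE 0.08, limma, adjusted p = 0.000139), by 0.73 in KO, 0.58 in Het and 0.28 in WT.

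Zbtb17 (Miz-1), the partner through which Myc represses cell cycle inhibitor genes, moved little. It ranged from 9.37 to 9.53 at Pre MegE, from 9.55 to 9.63 at Pre CFU-E and from 9.53 to 9.58 at CFU-E. CFU-E minus Pre MegE was 0.08 (SE 0.05, limma, adjusted p = 0.185). With arrays centred on their medians it was 0.20 (limma, adjusted p = 0.00641). Bcl6 lay between 6.99 and 7.45 and Zbtb32, which restrains T cell and plasma cell responses, between 7.16 and 7.46 in the progenitors, all below the array medians.

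**Figure D3:**
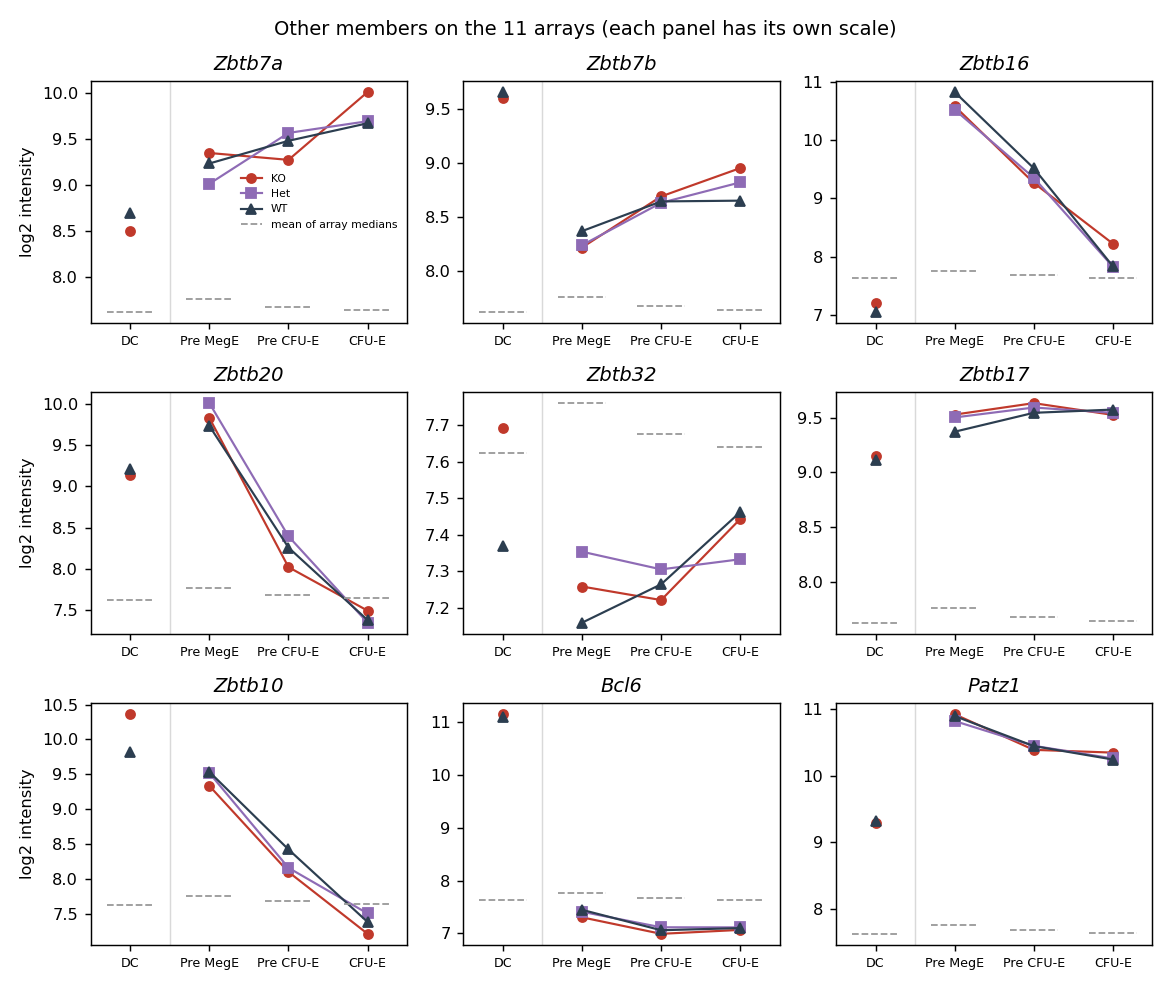
Log2 intensity of the other 9 members (vertical axis, a separate scale in each panel) in DC and in the 3 erythroid stages (horizontal axis); points are single arrays of KO, Het and WT, lines join the stages of a genotype, and dashes give the mean of the array medians. Zbtb16, Zbtb20 and Zbtb10 fall along the stages in all 3 genotypes, and Bcl6 stands above the median in DC at 11.16 in KO and 11.11 in WT.

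In DC, the members again went both ways. Of 9 members that entered the fit over the 11 arrays, 5 were higher and 4 lower than the mean of the 3 progenitor stages, beside 25.3% of all genes higher and 64.6% lower. Bcl6 entered through the DC arrays alone and Zbtb16 through the progenitor arrays alone, so that their directions were set by the filter and no test is given for them. Of the 7 members that reached the median in both kinds of cell, 4 were higher and 3 lower, beside 23% and 65.3% of the 9558 such genes. Under quantile normalization the split of all genes was 4671 higher and 5512 lower, in place of 2928 higher and 7463 lower. Cell type, tissue and the lower upper quartile of the DC arrays cannot be told apart in this comparison.

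Bcl6, a repressor needed for germinal centres and also expressed in classical DC, was the member with the largest difference. It had a log2 intensity of 11.16 in KO DC and 11.11 in WT DC, far above its progenitor range. The fitted excess of DC over progenitors was 3.97 on the log2 scale, with every progenitor value below its array median. The 2 genotypes differed by 0.05 in DC.

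Zbtb10 had 10.36 in KO DC and 9.82 in WT DC, above all 9 progenitor arrays. DC exceeded progenitors by 1.76 (SE 0.14, limma, adjusted p = 3.49e-07), and the difference was 2.15 in KO and 1.37 in WT. Zbtb7b had 9.60 in KO DC and 9.65 in WT DC, which also lay above every progenitor array, and exceeded progenitors by 1.04 (SE 0.08, limma, adjusted p = 2.03e-07). Zbtb46 exceeded them by 0.94 (SE 0.28, limma, adjusted p = 0.0082), with 0.38 in KO and 1.49 in WT. Without the WT DC array its difference was 0.38 (limma, adjusted p = 0.283), and its calls against Pre MegE (0.75, limma, adjusted p = 0.0651) and Pre CFU-E (0.34, limma, adjusted p = 0.378) were lost too. The call against Pre CFU-E was also lost without the WT Pre CFU-E array (0.72, limma, adjusted p = 0.0985).

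Zbtb20 stood between the stages, with 9.14 in KO DC and 9.21 in WT DC. It was lower in DC than at Pre MegE by 0.64 on the log2 scale (limma, adjusted p = 0.00015) and higher than at CFU-E by 1.81 (limma, adjusted p = 2.2e-08). Under quantile normalization the first of these was -0.02 (limma, adjusted p = 0.896). Zbtb16 had 7.20 in KO DC and 7.06 in WT DC, below the array medians and below all progenitor arrays, and its fitted difference from progenitors was -2.25.

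Patz1 had 9.29 in KO DC and 9.32 in WT DC, and Zbtb7a had 8.50 in KO DC and 8.69 in WT DC, both below their progenitor ranges. Their log2 differences were -1.23 for Patz1 (limma, adjusted p = 2.69e-09) and -0.91 for Zbtb7a (limma, adjusted p = 2.54e-05), past the all-gene median of -0.59. Under quantile normalization they were -0.56 for Patz1 (limma, adjusted p = 3.69e-06) and -0.36 for Zbtb7a (limma, adjusted p = 0.0139). Zbtb17, at 9.15 in KO DC and 9.11 in WT DC, had a difference of -0.40 (limma, adjusted p = 4.15e-05), smaller than that median, and turned to 0.25 (limma, adjusted p = 0.00193) under quantile normalization. Zbtb32 had 7.69 in KO DC and 7.37 in WT DC, and the KO DC value was the 1 of its 11 above an array median, so that it was tested nowhere.

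**Figure D4:**
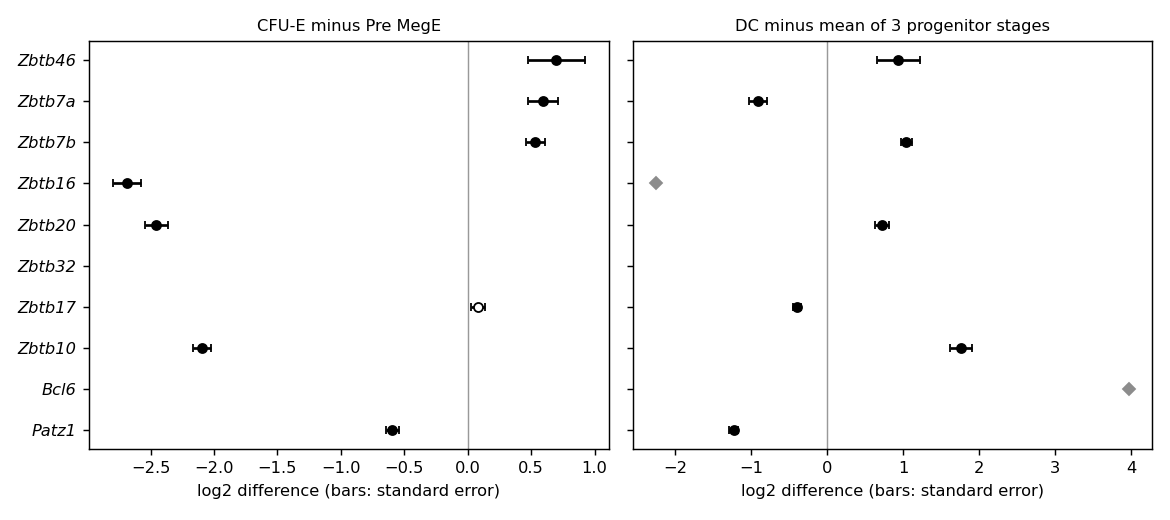
Log2 differences of the members (horizontal axis) for CFU-E minus Pre MegE (left) and DC minus the mean of the 3 progenitor stages (right), with bars of 1 standard error from limma; filled black points have an adjusted p under 0.05, grey diamonds (Bcl6 and Zbtb16) reached the array median in 1 kind of cell only, and members outside the fit have no point. Zbtb20 and Zbtb10 lie below 0 on the left and above 0 on the right, and Bcl6 lies at 3.97 on the right.

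Set against single stages, DC were higher than Pre MegE in 4 members and lower in 5, beside 22.5% of all genes higher and 65.7% lower. Under quantile normalization 5 were higher and 2 lower, beside 4402 genes higher and 5405 lower in place of 2606 and 7600. There Zbtb7a (-0.09, limma, adjusted p = 0.546) lost its call, as did Zbtb20, and Zbtb17 turned to 0.30 (limma, adjusted p = 0.00145). Against Pre CFU-E, 5 members were higher and 4 lower in DC, beside 25.4% and 63.1%. Against CFU-E, 4 were higher and 4 lower, beside 27.3% and 61%. Each of these counts includes Bcl6 among the higher and Zbtb16 among the lower members. The member that was not called against CFU-E was Zbtb46, with 0.61 (SE 0.32, limma, adjusted p = 0.0953). It was called there without the KO DC array (1.16, limma, adjusted p = 0.0104), without the KO Pre MegE array (0.68, limma, adjusted p = 0.0133) and under quantile normalization (0.98, limma, adjusted p = 0.0273).

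Between KO and WT progenitors no member was called. Of 8 members, 0 were called by limma between KO and WT, beside 0.14% of all genes, and 2 had an unadjusted p under 0.05 (Zbtb46 and Zbtb10). Zbtb46 itself averaged -0.54 over the 3 stages (SE 0.23, limma, adjusted p = 0.847). Its KO minus WT ran from 0.19 to -1.37 between stages, and the additive fit counts that course as spread. Zbtb10 was lower in KO at 3 of 3 stages, with KO minus WT of -0.20 in Pre MegE, -0.32 in Pre CFU-E and -0.17 in CFU-E cells, for a mean of -0.23 (SE 0.07, limma, adjusted p = 0.545). For Het set against WT, 0 of 8 members were called by limma, beside 0.0374% of all genes, and 0 had an unadjusted p under 0.05. The summed granulocyte markers were lower in KO than in WT at each stage, with 24428 in KO and 28482 in WT at Pre MegE, 12860 in KO and 16258 in WT at Pre CFU-E, and 11418 in KO and 14689 in WT at CFU-E. Limma called 2 of the 7 markers lower in KO, Elane (-0.43, adjusted p = 0.0136) and Ly6g (-0.44, adjusted p = 0.0289), and Elane also lower in Het (-0.42, adjusted p = 0.0366). Their part in these values was not tested.

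In DC, KO and WT were compared from 1 array each. Of 9 members that reached the median on either array, Zbtb46 alone differed by 1.5-fold or more and was lower in KO, beside 0.758% of genes higher and 1.77% lower. Zbtb10 came closest, 1.46-fold higher in KO. A further fit gave the lone DC arrays the spread between progenitor arrays, an assumption that these 2 arrays cannot test. In it limma called 2 of 9 members, Zbtb46 lower in KO (-1.65, SE 0.39, adjusted p = 0.0398) and Zbtb10 higher (0.54, SE 0.12, adjusted p = 0.0303), beside 2.21% of all genes higher and 4.85% lower. Both calls were near the threshold, with ranges of 3.19e-05 to 0.0786 for Zbtb46 and 0.000147 to 0.0588 for Zbtb10 over 17 alternatives. Without 1 array the Zbtb46 call was lost for Het Pre MegE (limma, adjusted p = 0.0581), KO Pre CFU-E (limma, adjusted p = 0.0514), WT Pre CFU-E (limma, adjusted p = 0.0786) and Het CFU-E (limma, adjusted p = 0.0695). The Zbtb10 call was lost without KO Pre MegE (limma, adjusted p = 0.0588) or Het Pre MegE (limma, adjusted p = 0.0516).

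The KO effect on Zbtb10 differed between DC and progenitors by 0.78 (SE 0.14, limma, adjusted p = 0.0171), the 1 member of 9 called in that test, beside 4.57% of all genes in either direction. Its DC arm is 1 KO and 1 WT array, and its SE comes from the progenitor arrays alone. That call was lost without the KO Pre MegE array (0.78, limma, adjusted p = 0.05). For Zbtb46 the same term was -1.11 (SE 0.45, limma, adjusted p = 0.216), and it was called without the KO CFU-E array (-1.46, limma, adjusted p = 0.021). Markers of other cells also differed in part between the 2 DC arrays. The sort left out B220+ cells, among which B cells and plasmacytoid DC are counted. The summed intensity of 6 macrophage and monocyte markers was 7892 in KO DC and 9224 in WT DC. Of these, C1qb (1.71-fold), C1qc (1.74-fold) and Fcgr1 (1.71-fold) were lower in KO DC by 1.5-fold or more, while Csf1r was 1.27-fold higher. The sum of 5 B cell markers was 2110 in KO DC and 1669 in WT DC. Of the 5, 2 reached the array median on each DC array. These were Ms4a1, 1.96-fold higher in KO DC, and Cd79b, higher there by 0.2582 on the log2 scale. The others lay below the median on both arrays, with KO minus WT of -0.693 for Cd79a, -0.416 for Ebf1 and 0.0635 for Pax5. The sum of 7 granulocyte markers, of which 0 in KO DC and 1 in WT DC reached the array median, was 908 in KO DC and 1020 in WT DC. All 5 plasmacytoid DC markers reached the array median on both arrays, with sums of 2575 in KO DC and 2803 in WT DC. Among progenitor arrays, Bst2 and Tcf4 also reached it on all 9 and Ly6d on 3, while Siglech and Ccr9 reached it on 0. Of 6 T cell markers, 3 reached it in KO DC and 2 in WT DC. The part of such other cells in the KO effect on Zbtb10 was not tested.

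**Figure D5:**
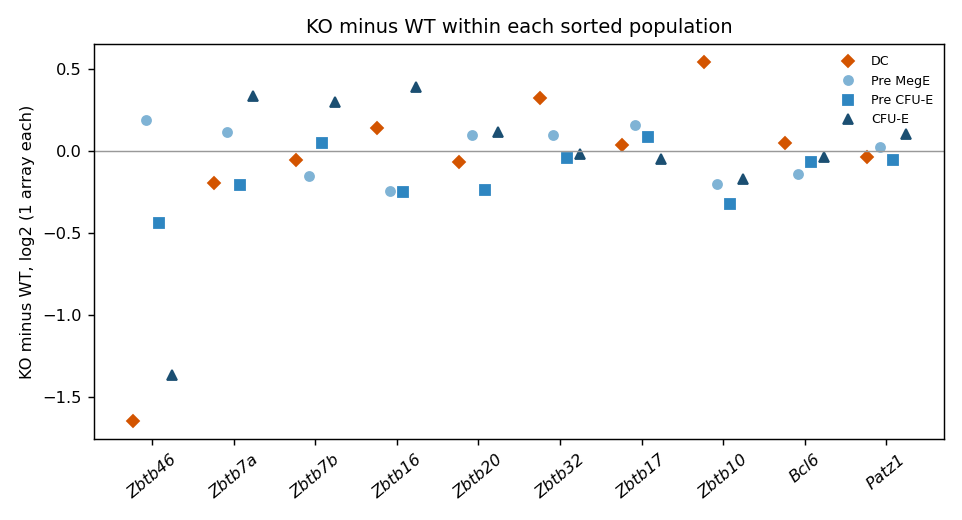
KO minus WT on the log2 scale (vertical axis) for the 10 members (horizontal axis), with 1 point per sorted population and 1 array on each side of every difference. Zbtb46 stands out at -1.65 in DC and -1.37 at CFU-E, and Zbtb10 is above 0 in DC and below 0 at all 3 progenitor stages.

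Each member's course was also set beside those of all other genes by Pearson's r, as a description over arrays that share the stage contrast. Over the 11 arrays, the genes closest to Zbtb46 were Rab10os (0.87), Ifi27 (0.86), Slc6a20b (0.83), Preb (0.81) and Ifih1 (0.78). Over the 9 progenitor arrays they were Fam3c (0.85), Podxl (0.84), Exoc6 (0.84), Kcnd3os (0.84) and Otp (0.84). Some of these genes were nearly flat, with log2 ranges of 0.29 for Rab10os and 0.16 for Preb over the 11 arrays. Over the 9 arrays Exoc6 ranged over 0.20 and Otp over 0.19. Wider ranges were those of Slc6a20b (0.89, 11 arrays) and Podxl (1.36, 9 arrays). Podxl had 8.20 in KO, 9.25 in Het and 8.90 in WT at Pre CFU-E, and 8.25 in KO, 9.53 in Het and 9.56 in WT at CFU-E, so that the KO array was again lowest at both. Over the same 9 arrays Zbtb16 was closest to Lmo4, a LIM-domain cofactor, and Rasgef1b (0.998 each). Zbtb20 was closest to Mbnl2 and Ptbp2, both splicing regulators (0.997 each), Zbtb10 to Cnn2 and Ccrl2 (0.996 each), and Patz1 to Ralgapa2 (0.996) and Coro2a (0.995). Zbtb7a was closest to Ppp1r37 and Tmtc3 (0.97 each), Zbtb7b to Pcsk6 and Sumf1 (0.99 each), and Zbtb17 to Gfus (0.97) and Dus3l (0.95). Zbtb32 was closest to Akap5 (0.92) and Adck2 (0.91), and Bcl6 to Slc35a5 and Cd177 (0.99 each), with both members below the array medians on these arrays. Among the members, Zbtb16, Zbtb20, Zbtb10 and Patz1 had an r of 0.94 to 0.98 with each other. Zbtb46 had an r of 0.43 with Zbtb32 and with Zbtb17, 0.36 with Zbtb7a and 0.33 with Zbtb7b. Its r was -0.66 with Zbtb16, -0.65 with Patz1, -0.59 with Zbtb20, -0.55 with Zbtb10 and -0.42 with Bcl6.

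The wider BTB zinc finger family, taken as 39 further genes of which 38 were on the array, was followed in the same comparisons. Of 35 tested, 5 were higher at CFU-E than at Pre MegE and 19 lower, beside 41.5% and 35.1% of all genes, with a median of -0.24 against 0.05 for all genes. The largest rises were Zbtb8a (1.25), Zfp131 (0.50), Gzf1 (0.34) and Zbtb45 (0.25), and the largest falls Zbtb26 (-0.58), Zbtb24 (-0.56), Zbtb38 (-0.56) and Zbtb25 (-0.52). In DC against progenitors 6 of 36 were higher and 26 lower, beside 25.3% and 64.6% of all genes, with a median of -0.81 against -0.59 for all genes. Of the 33 that reached the median in both kinds of cell, 5 were higher and 24 lower, beside 23% and 65.3% of the 9558 such genes. Under quantile normalization these counts were 12 higher and 16 lower, beside 4671 of all genes higher and 5512 lower. Zbtb18 (1.31), Zbtb4 (1.12) and Zbtb37 (0.55) were among the higher genes, while Zbtb14 (-1.45), Zbtb45 (-1.39) and Gzf1 (-1.39) were among the lowest. Hic1, a tumour suppressor of the family, entered through the DC arrays alone with a fitted difference of 3.15, and Zbtb8a through the progenitor arrays alone with -1.41. Between genotypes of the progenitors, limma called 0 of 35 in KO against WT and in Het against WT, with 1 at an unadjusted p under 0.05 in each.

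The corepressor partners of BTB proteins were followed through 24 genes, of which 22 were tested. At CFU-E against Pre MegE, 6 were higher and 11 lower, beside 41.5% and 35.1% of all genes, with a median of -0.15 against 0.05 for all genes. Pcgf1 (0.74), the Polycomb subunit of the BCoR complex, the deacetylases Hdac1 (0.57) and Hdac2 (0.30), and Gps2 (0.54), a subunit of the NCoR complex, rose the most. Hdac5 (-0.94), Bcor (-0.87), Hdac7 (-0.72) and Ctbp2 (-0.72) fell the most. In DC against progenitors, 1 was higher (Hdac5, 1.39) and 18 were lower, beside 25.3% and 64.6% of all genes, with a median of -1.01 against -0.59 for all genes. The lowest were Hdac2 (-2.18), Hdac7 (-1.87), Rcor1 (-1.76) and Ctbp1 (-1.67). Under quantile normalization 8 were higher and 12 lower, beside 4671 of all genes higher and 5512 lower. Limma called 0 of 22 in KO against WT progenitors, with 0 at an unadjusted p under 0.05, and 0 of 22 in Het against WT, with 1 at that level. In the fit that lends the DC arrays the progenitor spread, Pcgf1 was the 1 corepressor gene called, lower in KO DC (-0.57, SE 0.12, limma, adjusted p = 0.0259).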

How the data were processed

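The authors deposited an intensity per probe set and array, unlogged, and the submitters' processing notes name RMA without a version or any later scaling. The log2 of each intensity was taken. Of 29674 probe sets, 21780 named 1 gene, 1618 several and 6276 were unnamed here. Genes that reached the array median over all probe sets in 2 or more arrays of a fit were tested (10701 for 9 arrays, 11560 for 11) with limma 3.58.1 in R 4.3.3, two-sided, with Benjamini-Hochberg adjustment over all of them and a threshold of 0.05. Stage and genotype entered 1 additive fit, the interaction added stage order by number of gfp alleles, and DC fits used cell type and genotype. The fits were tested on simulated data. All 10 members are named. Other genes were named as the 5 (Zbtb46) or 2 (other members) closest in course, as up to 4 rises and 4 falls per list and comparison, or from a list of reported targets. Members and lists were chosen with earlier results of these data known. The number of arrays limits the precision, and no group has a replicate. Alternatives were other scalings, filters, variance models, probe set rules, and fits without single arrays or genotypes.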

Additional observations from a re-analysis of the deposited data

Results flagged for a closer look

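The KO effect of 8 genes from the lists followed here differed between DC and progenitors in the fit that lends the DC arrays the progenitor spread (limma), beside 528 of 11560 genes (4.57%). Zbtb10 had a difference of 0.7756 (adjusted p = 0.0171), since KO minus WT was 0.54 in DC and negative at all 3 progenitor stages. A further pair of BTB zinc finger genes were called, Hic1 with 0.5403 and Zbtb45 with -0.4492. Hic1 entered through the DC arrays alone, and its SE comes from progenitor values below the array medians, so that no p-value is given for it. Hic1 had a log2 intensity of 10.07 in KO DC and 9.67 in WT DC and lay below 6.86 in every progenitor array. Zbtb45 had 7.94 in KO DC and 8.35 in WT DC.

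Among 14 tested genes reported as targets or partners of the family, 5 were called, beside 4.57% of all genes. The list was made with earlier results of these arrays known, and Csf3r and Lifr ranked 1 and 18 in size of 10554 genes between KO and WT DC, so that the count is a description. Csf3r, the receptor of granulocyte colony-stimulating factor, had a difference of 1.884 (adjusted p = 0.00158), with log2 intensities of 11.24 in KO DC and 9.55 in WT DC. Lifr, the receptor of leukaemia inhibitory factor, had 1.0766, with 9.71 in KO DC and 8.60 in WT DC. Like Hic1, Lifr entered through the DC arrays alone, so that no p-value is given for it. Prdm1 had 0.7966, Bcl2l11 had 0.6834 and Gata2 had 0.4656. Gata2 entered through the progenitor arrays alone and lay below the median in both DC arrays, so that its DC difference is between 2 low values. The calls of the genes other than Csf3r and Lifr were lost without at least 1 progenitor array. Without KO Pre MegE, for example, the calls of Zbtb10, Hic1, Zbtb45, Prdm1, Bcl2l11 and Gata2 were all lost. Each of these differences rests on 1 KO and 1 WT DC array.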

How the results depend on the processing

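Of the values of single genes recomputed under the alternatives, 3006 kept their direction and side of the threshold, 103 lost a call, 26 gained one, 5 untested values moved by more than the median residual SD of 0.0705, and 5 reversed. The reversals all came with quantile normalization in DC, for Zbtb17 with 0.25 against progenitors, 0.30 against Pre MegE, 0.21 against Pre CFU-E and 0.23 against CFU-E, and for Ccnd2 with 0.0602 against progenitors. The number of members called in CFU-E against Pre CFU-E was 3 in place of 5 with no filter and with only the 2 stages compared, and 3 to 5 without single arrays. In the interaction it was 2 in place of 0 with array weights and 0 to 1 without single arrays. For the DC against progenitor KO effect it was 2 in place of 1 with array weights and 0 to 2 without single arrays. For KO against WT in DC with the progenitor spread it was 1 in place of 2 with no filter and with only WT and KO arrays, and 0 to 2 without single arrays. Of the DC pair, 2 members in place of 1 passed 1.5-fold under quantile normalization. The cause was not tested. Counts over all genes ranged from 3134 to 7163 for CFU-E against Pre CFU-E, 1 to 26 for KO against WT, 1 to 44 for Het against WT, 0 to 332 for the interaction, 201 to 3653 for the DC against progenitor KO effect and 414 to 5787 for the DC pair with the progenitor spread. With arrays centred on their medians, the split of Pre CFU-E against Pre MegE was 5045 higher and 2522 lower, in place of 3965 and 3134. The array weights did not fully converge in some fits. Genotype served as a block for the stages, and stage as one for the genotypes. Beyond these blocks, no paired analysis was possible because each group has 1 array. No background level per probe set was used here, so that no bound is given for values below the array median.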

Other observations

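Genes reported as targets or partners of these factors were followed along the erythroid series. Of 11 tested, 3 were higher at CFU-E than at Pre MegE and 8 were lower, beside 41.5% and 35.1% of all genes, with a median of -1.19 against 0.05 for all genes (limma). The erythroid factor genes Klf1 (0.80) and Gata1 (0.35) and the proapoptotic gene Bcl2l11 (0.20, adjusted p = 0.0459) were higher, and the call of Bcl2l11 was lost in 11 of 20 alternatives. Gata2 (-3.33), Spi1 (-2.27), which encodes PU.1, Runx1 (-1.65), Prdm1 (-1.64) and Ccnd2 (-1.55) fell the most, and Myc fell by 0.30 on the log2 scale. In DC against progenitors, 8 of 14 reached the array median in both kinds of cell. Of these, 4 were higher and 2 lower, beside 23% and 65.3% of the 9558 such genes, with Spi1 at 2.98 and Myc at -2.38. Irf4 (5.25) and Lifr (3.65) entered through the DC arrays alone and Gata1 (-4.79), Klf1 (-4.59) and Gata2 (-3.63) through the progenitor arrays alone, so that the filter set their directions. Between genotypes of the progenitors limma called 0 of 11 in KO against WT and in Het against WT, with 2 and 1 at an unadjusted p under 0.05.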
